A study of Drosophila melanogaster with 18 samples.

Results

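Of 749 barcoded reporters integrated in the genome of Drosophila Kc167 cells, 77 (10.3%) were lost from the mRNA when ACF1 was tethered to them. These 77 lost reporters were chosen by their counts: the cDNA count was 0 in each GAL4-ACF1 library and above 0 in at least 1 of the 2 GAL4 libraries. Their silence in GAL4-ACF1 and their presence in GAL4 are therefore given by the choice and are no finding. The measurements the choice did not use are their counts in the ACF1 and GAL4-HP1 libraries, their genomic DNA and their positions.

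The assay, TRIP, reads many integrated reporters in parallel, and Kc167 is a cell line derived from Drosophila embryos. Each reporter is a GFP gene behind a copper-inducible metallothionein promoter with 5 GAL4 binding sites (UAS), placed at a random site by a Sleeping Beauty transposon and marked by its own barcode of 21 nt. The pool was transfected with 1 of 4 plasmids in each case, all V5-tagged, driven by the actin 5C promoter of pAc5 and marked by mCherry, and every condition was induced with 0.5 mM copper sulfate. The plasmids encoded ACF1 joined to the DNA-binding domain of yeast GAL4 (GAL4-ACF1), ACF1 without that domain (ACF1), HP1a joined to the domain (GAL4-HP1) or the domain alone (GAL4, the control). Cells with mCherry signal were sorted at day 2 after transfection, and barcodes were counted in 2 replicates per condition, both from mRNA (cDNA) and from genomic DNA (gDNA). The effect was transient, on top of the endogenous ACF1 and HP1 of the cells, in 1 pool of a single cell line. Whether replicates are biological, as in the study, or technical, as in the series text, is not settled, so a p-value may measure only technical spread. In such bulk libraries, fewer expressing cells and less mRNA per cell cannot be told apart.

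ACF1 is the regulatory partner of the ATPase ISWI in the nucleosome remodelling complexes ACF and CHRAC, which slide nucleosomes and space them evenly. HP1a is the defining protein of heterochromatin. It binds histone H3 methylated at lysine 9 and silences genes when it is brought to them. The UAS sites let a GAL4 fusion bind the reporter, whereas ACF1 without the GAL4 domain has no such anchor there. ACF1 without the domain serves as the condition with extra ACF1 but no tethering. The GAL4 control, however, carries the domain, which can itself bind the sites. ACF1 against GAL4 thus differs both in extra ACF1 and in the missing domain, and these were not separated.

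A reporter is known only by its barcode and its site. The barcodes shown here are those of the lost reporters on which the values below turn. They were the 6 highest in GAL4, the neighbour of one of them, and 1 that was also at 0 in every ACF1 and GAL4-HP1 library. A further 3 were at 0 in both libraries of ACF1 or of GAL4-HP1 and above 0 in both of the other. The last 2 passed the test of ACF1 against GAL4. G and C are in capitals, the other bases in lower case, and each name gives chromosome, position and orientation of the integration in the dm3 genome build.
2L 12282921 minus: GaatCCtaaattttGGttaCt
3L 4659151 plus: aGttCtaGtatttGaGtCaGC
3L 4658316 plus: atatGtGGaGGGCGGaCCaCt
3R 904236 plus: attGGaaCtGCtGCCCttaGG
3R 21356507 minus: tGtGCtGttttGGCtttattC
2L 4361232 plus: GttaGtCtGaCatCCGGCttG
3L 19275659 plus: attCaaGaatCGtaGGtaaCt
2L 17140556 minus: tttCtGttaGGatatCattCG
X 777625 plus: aGGCaCattGtCGaCCGGtGG
3L 24289137 minus: GGaaaGttGaGttGttatttC
X 14626266 minus: GCaGGGttGGGaCttCGaatt
2L 17182190 minus: aGttGCtGaattGtttatGGG
2L 12349540 minus: CtGttGCGattGGGtCtttCt

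The barcodes of the lost reporters were like the rest in base composition. They held a median of 10 G or C bases of 21 (lowest 5, highest 15), and the 672 other reporters also a median of 10 (lowest 5, highest 17). The closest barcodes in the whole table differed at 6 positions, both among pairs with a lost reporter and among all others. No lost reporter lay within 3 mismatches of another barcode.

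The libraries were of similar depth. The cDNA libraries held 2616438 and 3715878 counts in GAL4-ACF1, 3832782 and 4049776 in ACF1, 3237365 and 3807089 in GAL4-HP1, and 4181903 and 3941610 in GAL4. The gDNA libraries held 1535023 to 2860908 counts. The cDNA depth of GAL4-ACF1 replicate 1 was thus the lowest of the 8, and 123 reporters would have met the rule on replicate 2 alone, against 171 on replicate 1 alone. A count of 0 allows up to 3 counts, and since no molecular identifiers are described, this floor and the intervals below cover counting error only.

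Most lost reporters were weakly expressed in the GAL4 control. Expression is the deposited ratio of cDNA to gDNA counts of a replicate, times 1 factor per library that holds the authors' scaling to spiked-in cells. Mean GAL4 expression had a median of 3.97 in the lost reporters (quartiles 1.54 and 9.97, range 0.015 to 56.8). It was 36.0 in all 672 other reporters, of which 664 were above 0 in GAL4. When the 741 reporters above 0 in GAL4 were ordered by that expression and divided into 10 groups of equal size, the lowest group held 34 of the lost reporters among its 75 members, and the next groups held 18, 11, 7 and 5. The remaining 2 lay above, in group 7. So 52 of the 77 (67.5%) lay in the lowest 2 groups, yet 2 had a mean above the median of the others. For 1 of these 2, at 3L 4659151, the mean rested on replicate 1 (98.1, against 2.61 in replicate 2).

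In counts, the lost reporters had medians of 74 and 55 in the GAL4 cDNA libraries, against 947 and 769.5 in all other reporters. Of the 77, 71 averaged at least 10 GAL4 counts, 56 were above 0 in both GAL4 libraries, and 21 were at 0 in 1 of them. Against 3 counts in each GAL4-ACF1 library, GAL4 expression was at least 10 times as high in 48 of them and at least 50 times as high in 21. For 5 reporters this bound fell below 1, so no drop could have been detected.

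The reporter at 2L 12282921 (minus) had the highest GAL4 expression of all that were lost. It had 0 and 0 cDNA counts in GAL4-ACF1, 81 and 30 in ACF1, 130 and 473 in GAL4-HP1, and 515 and 263 in GAL4. Its expression was at least 157-fold lower in GAL4-ACF1 than in GAL4, yet it was the highest of the 77 in GAL4-HP1, at 13.4 against 56.8 in GAL4.

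Among the next highest, 2 reporters on 3R were nearly as silent with tethered HP1 as with tethered ACF1. At 3R 904236 (plus), counts were 0 and 0 in GAL4-ACF1, 23 and 62 in ACF1, 0 and 1 in GAL4-HP1, and 220 and 270 in GAL4. At 3R 21356507 (minus), they were 0 and 0 in GAL4-ACF1, 56 and 45 in ACF1, 0 and 1 in GAL4-HP1, and 147 and 173 in GAL4. Both kept counts with free ACF1 in each replicate, and in neither did the GAL4-HP1 libraries overlap those of GAL4. This last trait is common, since GAL4-HP1 expression lay below both GAL4 values in 62.6% of all 741 reporters. Both sites were also picked for high GAL4 expression, which favours a drop in another condition.

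The other 2 of these strong reporters kept counts in every library apart from GAL4-ACF1. At 2L 4361232 (plus), counts were 159 and 32 in ACF1, 287 and 14 in GAL4-HP1, and 560 and 86 in GAL4. At 3L 19275659 (plus), they were 84 and 8 in ACF1, 66 and 90 in GAL4-HP1, and 165 and 235 in GAL4. Replicates of 1 condition differed several times over at the first site, and the ACF1 libraries did so at the second.

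The border of the rule ran through reporters of the same kind. A further 19 reporters had exactly 1 count over both GAL4-ACF1 libraries, with a median GAL4 expression of 3.35, and 141 were at 0 in only 1 of these libraries. The highest of the 19 in GAL4 were at X 8092242 (minus), X 19319180 (minus) and X 22197563 (plus), with GAL4 expression of 38.0, 29.4 and 22.2. The reporter at X 22197563 had 1 and 0 counts in GAL4-ACF1, 0 in all ACF1 and GAL4-HP1 libraries, and 252 and 36 in GAL4.

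The genomic DNA showed that the lost reporters were still in the cells. Every one had gDNA counts in every library, at least 119 in the GAL4-ACF1 libraries and at least 89 anywhere. Together they made up 3.73% and 4.17% of the gDNA counts in GAL4-ACF1, against 3.91% and 3.93% in GAL4, a ratio of 1.01 (exact permutation test over libraries, two-sided p = 1). For gDNA of GAL4-ACF1 against gDNA of GAL4, edgeR's quasi-likelihood test at an adjusted p below 0.05 called 0 of the 77 and 0.134% of all reporters, with 0 of the 77 at an unadjusted p below 0.05. DESeq2 called 0 too, with 1 at an unadjusted p below 0.05 when scaled to library totals. With the gDNA libraries fitted alone, so that the wider spread of cDNA did not enter, the call count was also 0 and 2 had an unadjusted p below 0.05.

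Their gDNA level was, however, below that of the others. The median over all libraries was 398 CPM (counts scaled to a fixed library total), against 729 in the others and 841 in others of like GAL4 expression. With all reporters in 4 groups of equal size from low to high gDNA level, 40, 20, 16 and 1 of the lost ones fell in these groups. A reporter with less gDNA gives fewer cDNA counts at the same expression ratio, and the part of this in the loss was not tested. For this reason the main shares of silent reporters below stand beside others of like GAL4 expression and, separately, of like GAL4 cDNA counts. The log2 changes, the shares below GAL4 or ACF1 and the share with counts in every library were not matched on cDNA counts. In those comparisons the part of the lower gDNA was not tested.

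The lost reporters reached beyond any single arm. There were 19 of 150 reporters on 3L, 17 of 131 on 2L, 15 of 176 on 3R, 11 of 147 on X and 7 of 112 on 2R. If each of the 10 groups of GAL4 expression had lost the same share at every place, these numbers would be 13.7, 14.6, 17.3, 15.0 and 9.66. The counts on 3L and 2L lay above those numbers and the counts on 3R, X and 2R below, each within the 95% Wilson interval of its share.

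Heterochromatin and chromosome 4 lost a larger share, as did weak reporters anywhere. Heterochromatic scaffolds, unplaced sequence and chromosome 4 held 8 lost reporters of 33 (24.2%, 95% Wilson interval 12.8% to 41.0%), against 69 of 716 (9.64%, 7.69% to 12.0%) on the 5 large arms. Median GAL4 expression was 3.92 over all reporters of these places and 30.9 on the arms. At their GAL4 expression, 6.64 losses would be counted in the heterochromatin group and 70.4 on the arms, close to the 8 and 69 found. Of the 8, 3 were on 2RHet (10 reporters), 3 on 3LHet (7), 1 on 3RHet (7) and 1 on chromosome 4 (5). The share on chromosome 4 alone had a 95% Wilson interval of 3.62% to 62.4%. Its 5 reporters were not weak, with a median GAL4 expression of 57.7.

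Of 348 reporters in plus orientation 36 were lost (10.3%), and of 401 in minus orientation 41 (10.2%). Neighbours within 100 kb of a lost reporter were themselves lost in 20 of 104 cases (19.2%), where their GAL4 expression alone gives 15.8%. Within 10 kb it was 2 of 11 (18.2%), against 20.8% by expression. These 2 are 1 pair counted from both sides.

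That pair, on 3L, was the closest, with sites 835 bp apart in the same orientation. GAL4 expression was uneven between replicates, at 98.1 and 2.61 at 3L 4659151 and 37.0 and 4.90 at 3L 4658316. At 3L 4659151, counts were 0 and 0 in GAL4-ACF1, 2 and 0 in ACF1, 0 and 28 in GAL4-HP1, and 1046 and 37 in GAL4. At 3L 4658316, they were 0 and 0 in GAL4-ACF1, 125 and 18 in ACF1, 8 and 2 in GAL4-HP1, and 885 and 251 in GAL4. Both were low in the ACF1 and GAL4-HP1 libraries, and all ACF1 and GAL4-HP1 counts at 3L 4658316 lay below the lower GAL4 count. Expression per gDNA at that site, however, overlapped between ACF1 (5.73 and 0.399) and GAL4 (37.0 and 4.90). The GAL4-HP1 values (0.178 and 0.0176) lay below both GAL4 values. The next closest pairs were 17289 bp apart on 3R (22227093 and 22244382) and 37546 bp apart on 3L (5401154 and 5438700).

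A second close case crossed the border of the rule and was picked after its values were seen. The lost reporter at X 19318769 (minus) lay 411 bp from X 19319180 (minus), which had 1 count over both GAL4-ACF1 libraries. Their GAL4 counts were 42 and 65 at the lost site and 304 and 175 at its neighbour. Both were thus at or near 0 with tethered ACF1 although GAL4 expression differed, at 3.44 and 29.4.

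With free ACF1, part of the lost reporters fell silent as well. ACF1 replicate 1 had 24 of the 77 at 0 and replicate 2 had 32, with 11 at 0 in both (14.3%, 95% Wilson interval 8.17% to 23.8%). Of the 664 other reporters 17 (2.56%) were at 0 in both. That gap narrowed among reporters of like expression: others in the same groups of GAL4 expression, weighted by the number of lost reporters in each, were at 0 in both in 10.3% (368 reporters). Among others of like GAL4 cDNA counts the share was 15.6% (294 reporters), so at matched counts the share in the lost reporters was not above that of the others.

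With tethered HP1, a similar number of the lost reporters fell silent. GAL4-HP1 replicate 1 had 34 of the 77 at 0 and replicate 2 had 22, with 12 at 0 in both (15.6%, 95% Wilson interval 9.15% to 25.3%). Of the 664 others 7 (1.05%) were at 0 in both, of those with like GAL4 expression 5.90%, and of those with like GAL4 cDNA counts 8.36%. These shares are a description without a test, because reporters are not replicates of a condition. Among the 56 lost reporters above 0 in both GAL4 libraries, 3 (5.36%) were at 0 in both GAL4-HP1 libraries, where others above 0 in both GAL4 libraries gave 3.56% at like GAL4 expression and 6.13% at like GAL4 cDNA counts. Also 3 of the 56 were at 0 in both ACF1 libraries, where such others gave 6.70% and 12.0%. In this stricter set the lost reporters did not stand above others of like counts under either plasmid.

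A single 0 says less than a pair, because the lost reporters were uneven between replicates in every condition. Where a lost reporter had at least 50 counts in 1 library, the other replicate was at 0 in 12 of 46 cases in GAL4-HP1 (26.1%), 10 of 28 in ACF1 (35.7%) and 8 of 84 in GAL4 (9.52%). For the 664 other reporters above 0 in GAL4 these shares were 2.57%, 1.53% and 0.238%. These others were not matched on expression or counts, and their counts were far higher. A value of 50 or more thus stood against a 0 in the same condition at a higher share in the lost reporters than in these unmatched others, the control included. The part of their lower counts in this was not tested.

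Few lost reporters were at 0 in all ACF1 and GAL4-HP1 libraries. Of the 77, 4 were at 0 in all ACF1 and GAL4-HP1 libraries (5.19%), 7 in both ACF1 libraries alone, 8 in both GAL4-HP1 libraries alone, and 58 (75.3%) in neither pair. The 4 make up 36.4% of the 11 lost with ACF1 and 33.3% of the 12 lost with GAL4-HP1. Replicates of 1 plasmid also shared only part of their zeros, 11 of the 24 and 32 in ACF1 and 12 of the 34 and 22 in GAL4-HP1. The partial overlap between plasmids is therefore not read as a difference between the proteins. Of others with like GAL4 expression 1.17% were at 0 in all 4 libraries, and of those with like GAL4 cDNA counts 2.07%.

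Seen over the whole table, 28 reporters above 0 in GAL4 were at 0 in both ACF1 libraries, and 11 of these (39.3%) were among the 77. The GAL4-HP1 list held 19, of which 12 (63.2%) were among the 77. The ACF1 and GAL4-HP1 lists shared 6 reporters, 31.6% of the GAL4-HP1 list and 21.4% of the ACF1 list. Counted by the share of the 77 in each group of GAL4 cDNA counts, 9.15 of the 19 (48.2%) and 11.5 of the 28 (41.1%) would be among the 77. The GAL4-HP1 list lay above that number and the ACF1 list next to it. All 3 lists require a GAL4 count above 0.

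The lost reporters that were also at 0 in a pair of ACF1 or GAL4-HP1 libraries were weak in GAL4. Median GAL4 expression was 1.32 in the 4 lost with both plasmids (range 0.192 to 5.31), 0.855 in the 7 lost with ACF1 alone and 1.33 in the 8 lost with GAL4-HP1 alone, against 5.93 in the 58 that were at 0 in neither pair. The highest of the 4, at 2L 17140556 (minus), had 0 counts in all 6 GAL4-ACF1, ACF1 and GAL4-HP1 libraries and 108 and 0 in GAL4, with gDNA counts of 189 to 758. It was lost in 1 of the GAL4 libraries too. The next, at 2RHet 372679 (minus), had 24 and 0 counts in GAL4, and the third, at 2R 16012916 (minus), had 5 and 0.

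Reporters that separated ACF1 from GAL4-HP1 were few. Only 3 lost reporters were at 0 in both ACF1 libraries and above 0 in both GAL4-HP1 libraries, and 2 the reverse. The share of these classes in other reporters was not taken. In the wider class at 0 in both ACF1 libraries alone were 9.09% of the lost reporters and 9.08% of others of like GAL4 expression. At 0 in both GAL4-HP1 libraries alone were 10.4% and 4.73%. Of the 3, the reporter at X 777625 (plus) had counts of 22 and 262 in GAL4-HP1, 0 and 0 in ACF1, and 110 and 172 in GAL4. At 3L 5319196 (minus), they were 24 and 60 in GAL4-HP1, 0 and 0 in ACF1, and 26 and 0 in GAL4. The third, at 2R 7658343 (plus), had 82 and 91 in GAL4-HP1, 0 and 0 in ACF1, and 19 and 8 in GAL4. At these sites, free and tethered ACF1 were both at 0 while tethered HP1 left counts of the same order as GAL4 or above it.

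In the opposite class, the counts were less even. At 3L 24289137 (minus), they were 0 and 0 in GAL4-HP1, 2 and 33 in ACF1, and 234 and 64 in GAL4, with some of the highest gDNA counts of any lost reporter (3091 to 6747). At X 14626266 (minus), they were 0 and 0 in GAL4-HP1, 508 and 2 in ACF1, and 0 and 29 in GAL4. The first site was silent with HP1 despite ample DNA, whereas the second varied so much between replicates that no order of conditions could be read.

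A direct comparison of GAL4-HP1 with ACF1 uses no library that entered the rule. Of the 77, 41 had the higher mean expression in GAL4-HP1, 32 in ACF1 and 4 were at 0 in each. On the authors' scaling, the GAL4-HP1 values lay above both ACF1 values in 9, where 6.07% of all 741 reporters did so, and below both in 7, where 40.6% did. A value below both needs counts in both ACF1 libraries, which only 32 of the 77 had. Among reporters with such counts, it was 7 of 32 (21.9%) in the lost ones, against 47.6% of all 632 and 32.4% of others of like GAL4 expression. These shares rest on the scaling, since the median log2 difference of GAL4-HP1 over ACF1 over all reporters in edgeR was −0.95 with the authors' scaling but 0.06 with library totals. In the lost reporters it was 0.20 and 1.27, above that of all reporters under both. This order was not steady. In the fit with library totals but without GAL4-HP1 replicate 2, the median was −0.35 in the lost reporters and −0.12 over all. Without GAL4-HP1 replicate 1, or without either ACF1 replicate, the lost reporters stayed above all reporters. The order thus rested on GAL4-HP1 replicate 2.

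No lost reporter passed the test of that comparison. edgeR's quasi-likelihood test called 0 of the 77 and 0% of all 749 reporters, with 17 of the 77 at an unadjusted p below 0.05, where 10.5% of all reporters were. DESeq2 called 5 of the 77 with library totals (2.94% of all reporters) and 3 with median-of-ratios factors (2.54% of all). The smallest p of edgeR belonged to 2R 7658343 (adjusted p = 0.0926), the site with 82 and 91 against 0 and 0 counts.

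Relative to GAL4, expression of the lost reporters was lower under both plasmids, but GAL4 counts were part of the rule and both comparisons share the GAL4 libraries. The median log2 fold-change was −1.86 in GAL4-HP1, against −1.49 over all 741 reporters and −1.30 in others of like GAL4 expression. In ACF1 it was −2.12, against −0.52 over all and −1.07 in others of like GAL4 expression. Set against the median of all reporters, the lost ones differed by −0.37 in GAL4-HP1 and −1.60 in ACF1. Scaling to library totals in place of the authors' factors gave −1.02 in GAL4-HP1 and −2.29 in ACF1, with −0.70 and −0.79 over all reporters, and left these gaps at −0.32 and −1.50. On replicate 1 or 2 alone the gap was −1.49 or −0.75 in GAL4-HP1 and −3.44 or −2.01 in ACF1, so its size was not steady. In GAL4-HP1 its direction was not steady either. In the edgeR fit without GAL4 replicate 1 the median was −0.19 in the lost reporters and −0.52 over all.

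Single reporters were counted in the same way. Mean expression was below GAL4 in 61 of the 77 in GAL4-HP1 (79.2%), against 89.2% of all reporters and 77.6% of others of like GAL4 expression. In ACF1 it was below GAL4 in 59 (76.6%), against 68.3% of all and 75.6% of others of like GAL4 expression. Both shares were close to those of others of like expression. Both libraries lay below both GAL4 libraries in 29 for GAL4-HP1, where 62.6% of all reporters did so, and in 32 for ACF1, where 34.3% of all did. They lay above both GAL4 libraries in 3 for GAL4-HP1 (1.21% of all reporters) and in 1 for ACF1 (9.31%). A reporter at 0 in a GAL4 library cannot lie below both, which took 21 of the 77 out in advance. Of the remaining 56, 29 (51.8%) lay below both with GAL4-HP1, against 65.4% of all 709 reporters above 0 in both GAL4 libraries and 62.2% of those of like GAL4 expression. With ACF1 it was 32 of 56 (57.1%), against 35.8% of all and 46.3% of those of like GAL4 expression.

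Summed over the 77, cDNA made up 1095 and 1063 CPM in GAL4-HP1, 851 and 418 in ACF1, and 2669 and 1503 in GAL4. GAL4-HP1 averaged 1079 ± 22.9 and GAL4 2086 ± 824 (SD, n = 2 each), a ratio of 0.517. ACF1 averaged 634 ± 307 and GAL4 2086 ± 824 (SD, n = 2 each), a ratio of 0.304. Neither set of libraries overlapped that of GAL4, and both exact permutation tests gave p = 0.33 (two-sided), the smallest that 2 libraries against 2 allow. The rule required counts in GAL4, which can raise the GAL4 sum, so a lower sum under another plasmid is partly given by the choice. No such sum was taken over others of like GAL4 expression.

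Single reporters rarely passed a test. Against GAL4, edgeR's quasi-likelihood test called 0 of the 77 in GAL4-HP1, where 0.267% of all 749 reporters were called, with 11 of the 77 at an unadjusted p below 0.05, where 10.9% of all were. DESeq2 called 5 of the 77 with library totals (4.01% of all reporters) and 4 with median-of-ratios factors (2.40% of all). In ACF1 edgeR called 2 of the 77, both lower, where 1.34% of all reporters were called.

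Both called sites were on 2L. At 2L 17182190 (minus), cDNA counts were 1 and 0 in ACF1, 29 and 17 in GAL4-HP1, and 118 and 107 in GAL4. The ratio of ACF1 to GAL4 per gDNA was 0.00328, with a 95% exact counting interval of 8.28e-05 to 0.0185 (edgeR adjusted p = 0.0385). At 2L 12349540 (minus), they were 1 and 0 in ACF1, 29 and 30 in GAL4-HP1, and 181 and 165 in GAL4. The ratio was 0.00404, with an interval of 1.02e-04 to 0.0227 (edgeR adjusted p = 0.0494).

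At these sites free ACF1 came with nearly the same silence as tethered ACF1, and tethered HP1 left counts in both replicates. Both calls were lost without any 1 of the 4 ACF1 and GAL4 replicates, with TMM factors, with the authors' scaling, with the replicate block and with the cDNA libraries alone. The 2 sites lie apart on the arm, but each had another lost reporter within 100 kb, at 2L 17140556 and at 2L 12282921.

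A few lost reporters were high under one of the other plasmids. In GAL4-HP1, after 2L 12282921, the highest were 2L 1545465 (minus), where GAL4-HP1 had 288 and 1 counts and GAL4 80 and 114, and 3R 3414869 (plus), where GAL4-HP1 had 231 and 36 and GAL4 34 and 14. Both GAL4-HP1 counts at 3R 3414869 exceeded both GAL4 counts, but expression per gDNA overlapped. The GAL4-HP1 ratios were 22.9 and 0.513, and the GAL4 ratios 1.81 and 1.66. In ACF1 the highest were 2R 6565687 (plus), with 695 and 0 counts in ACF1 and 214 and 117 in GAL4, 3L 22637050 (plus), with 101 and 0 in ACF1 and 16 and 63 in GAL4, and X 14626266. The 3 high ACF1 means rested on replicate 1, with at most 2 counts in replicate 2.

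Counted over the 6 libraries of ACF1, GAL4-HP1 and GAL4, 17 of the 77 were above 0 in all 6, 23 in 5, 16 in 4, 10 in 3, 7 in 2 and 4 in 1. The 17 had a median GAL4 expression of 7.81 and a median of 150.5 mean GAL4 counts. For them a 0 in both GAL4-ACF1 libraries stood against counts in every other library. Of the 77, 18 (23.4%) were above 0 in all 4 ACF1 and GAL4-HP1 libraries, against 55.7% of others with like GAL4 expression.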

How the data were processed

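The 77 reporters, the comparisons and the reporters named were chosen with earlier results of these data known. The authors deposited 1 table with whole-number cDNA and gDNA counts per barcode, not normalized, together with expression for each library. This deposited value is a ratio of cDNA to gDNA counts of a replicate, multiplied by 1 factor per library, which the authors took from a spiked-in pool added at 2.5% of cells. Dividing the factor out gave 1 constant per library. Of the columns of sample values 0 were left unmatched. The counting software is not given in the sources used here. Positions follow dm3 per the labels, and no gene annotation of that build was used, so whether a site lies in a gene, exon or intron was not analysed here. The study left out reporters at 0 in a condition, which would remove all 77. The spike-in barcode list and the mapping library were not used.

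Mean expression per condition was taken without a pseudocount. Others of like GAL4 expression are reporters of the same 10 equal groups of mean GAL4 expression, weighted by the number of lost reporters in each. Others of like GAL4 cDNA counts use 10 groups of CPM. edgeR 4.0.16 (quasi-likelihood, R 4.3.3) was fitted to the deposited counts of all 749 reporters in 16 libraries and 8 groups, with column totals as library sizes, as the cDNA contrast less the gDNA contrast of the conditions, two-sided, with Benjamini-Hochberg adjustment over all reporters at a threshold of 0.05. It was tested on simulated data. DESeq2 1.42.0, other factors, a filter at a mean of 10 GAL4 counts, a replicate block and leaving out each library were alternatives. Exact permutation tests over libraries and binomial intervals used scipy 1.17.1.

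Reporters were named by rule: the 6 highest in GAL4; the 3 highest in GAL4 at 0 in all ACF1 and GAL4-HP1 libraries; the 2 highest in GAL4 in each class lost with only 1 of these plasmids; the 3 highest in GAL4-HP1 and in ACF1; those called in a test; the 3 highest just outside the rule; and the 3 closest pairs. The sites X 19318769 and 2R 7658343 were added after their values were seen.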

Additional observations from a re-analysis of the deposited data

How the results depend on the processing

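The number of lost reporters was 77. It was 123 to 171 when a 0 in 1 GAL4-ACF1 library sufficed, so the choice rests on both libraries.

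Against GAL4, the number of lost reporters called in ACF1 was 2 by edgeR. It was 7 by DESeq2 with library totals (of 63 with an adjusted p, and 5.87% of all reporters), 5 by DESeq2 with median-of-ratios factors (4.94% of all), 0 with TMM factors, 0 with the authors' scaling, 0 with cDNA libraries alone, and 0 to 0 when each ACF1 or GAL4 replicate was left out. In GAL4-HP1 it was 0 by edgeR, 5 and 4 by DESeq2 with these factors, and 2 with the authors' scaling. For GAL4-HP1 against ACF1 it was 0 by edgeR and 5 and 3 by DESeq2. The cause of these differences between tools was not tested. With the replicate number as a block, 0 were called in ACF1 and 1 in GAL4-HP1 (replicate block). The differences between cDNA replicates correlated at −0.05 to 0.11 between conditions over all reporters. This cannot settle whether libraries of the same replicate number shared a preparation. For GAL4-HP1 against ACF1 and for gDNA the block left 0 lost reporters called, and it ended the 1 call over all reporters in gDNA.

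The share of lost reporters at 0 in both GAL4-HP1 libraries was 15.6%. It was 24.5% with at most 3 counts in place of 0 (102 reporters), 5.36% among those above 0 in both GAL4 libraries and 28.6% to 44.2% on 1 GAL4-HP1 library alone. The share at 0 in both ACF1 libraries was 14.3%. It was 33.3% with at most 3 counts in place of 0 (102 reporters), 5.36% among those above 0 in both GAL4 libraries, and 31.2% to 41.6% on 1 ACF1 library alone. Others of like GAL4 expression at 0 in both ACF1 libraries made up 10.3%, 15.6% when matched on GAL4 cDNA CPM, and 15.3% when matched on expression and gDNA, an alternative chosen after seeing the data. The shares among reporters above 0 in both GAL4 or both ACF1 libraries were also added after seeing the data.

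The median log2 fold-change of the lost reporters in GAL4-HP1 was −1.86. It was −1.02 with scaling to library totals, −1.30 from cDNA CPM alone, −1.45 with a pseudocount of 0.5 CPM, and −2.70 to −2.85 on 1 replicate. In ACF1 it was −2.12, and −2.78 to −3.81 on 1 replicate. The gap to the median of all reporters was −0.37 in GAL4-HP1, −0.64 from cDNA CPM alone and −0.66 with the pseudocount. It was −1.60 in ACF1, −1.50 from cDNA CPM alone and −1.02 with the pseudocount. No direction changed among these settings. In the edgeR fit without GAL4 replicate 1, the GAL4-HP1 median was −0.19 in the lost reporters and −0.52 over all. There the direction of the GAL4-HP1 gap was reversed. Over all results, 49 alternative values stayed close to the value given in the report and 33 moved. With 2 libraries per condition, no comparison of summed counts could pass a threshold, and a lost reporter with few GAL4 counts could show no drop.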
